A study of Saccharomyces cerevisiae with 4 samples.

Results

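The cell cycle of budding yeast (Saccharomyces cerevisiae) is driven by the cyclin-dependent kinase Cdc28 and the 9 cyclins that activate it, and it is restrained by the inhibitor Sic1. The genes for these cyclins, CLN1 to CLN3 and CLB1 to CLB6, and SIC1 are described here as 10 genes chosen by name, out of the 5656 genes that the array's annotation pairs with a probe set of their own. Each had exactly 1 probe set, and 0 shared probe sets carried the name of any of them. Of the 10 genes, 9 were bright enough to test, and CLB6 was not.

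The arrays compared a wild-type strain with a strain whose histone H3 carries glycine for lysine at residues 79, 36, 27, 23, 18, 14, 9 and 4. Each group had 2 one-colour arrays of total RNA (n = 2), from cells in mid-log growth in YPD, a rich glucose medium, harvested at an OD600 of 0.5 to 0.7. The labels name the same wild type as the control of a further H3 strain, not analysed here, and give neither mating type, ploidy nor any other genotype of either strain. Whether the replicates came from separate cultures is not stated, so the spread among the 4 arrays may be technical. Each p-value and standard error joins a gene's own spread with spread pooled over genes of like brightness. The pooled part weighs more (7.03 prior against 2 residual degrees of freedom), and the small number of arrays limits the precision.

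Cln3 acts first in G1 and relieves the transcription factor SBF of its inhibitor Whi5, and SBF with MBF then switches on CLN1, CLN2, CLB5 and CLB6. Cln1 and Cln2 drive budding and, with Cdc28, mark Sic1 for destruction by the ubiquitin ligase SCF, which frees Clb5 and Clb6 to start DNA replication. Clb3 and Clb4 act next on the spindle, Clb1 and Clb2 drive mitosis, and Swi5 helps to switch SIC1 back on as cells leave mitosis. Most of these transcripts are made in a narrow window of the cycle. In asynchronous cultures such as these, fewer cells in a phase and less RNA per cell in that phase cannot be told apart.

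The signal of CLN1, CLN2 and CLN3 was lower in the H3 mutant, that of CLB3 was lower and that of CLB4 higher, while CLB1, CLB2, CLB5 and SIC1 did not pass the test. In limma's test across 4476 genes, at a Benjamini-Hochberg adjusted p of 0.05, 4 of the 9 tested members fell, 1 rose and 4 did not pass. Among all tested genes 29.8% were called in either direction, 14.3% higher and 15.5% lower. The changes were modest, from -0.77 to 0.32 as differences of log2(signal + 16), a scale on which dim genes appear to change less than they do. Over all tested genes the median standard error was 0.109. The wild-type and mutant arrays did not overlap for 8 of the 9 tested members, as for 67.4% of all tested genes.

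**Figure D1:**
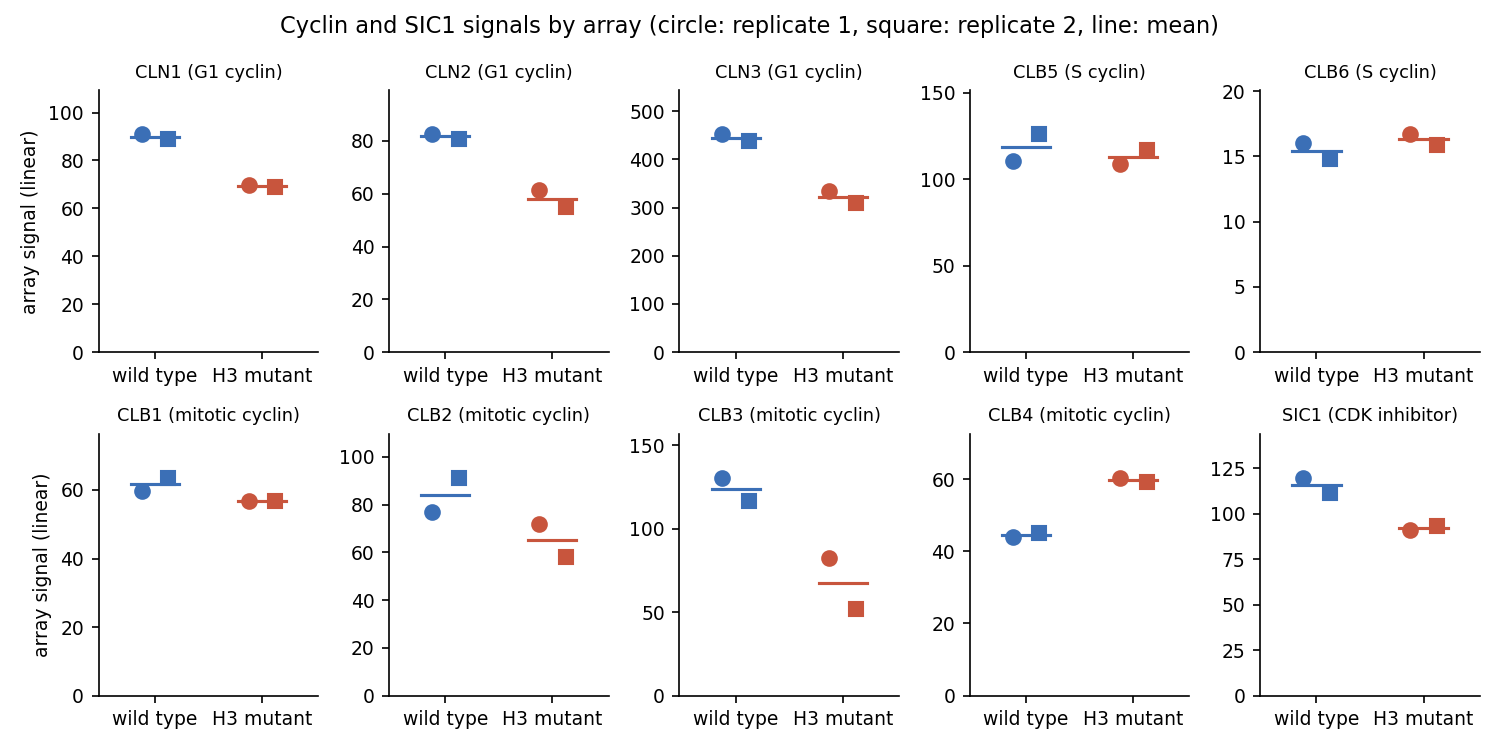
Array signal on a linear scale for each of the 10 genes, with the wild-type arrays in blue and the H3 mutant arrays in red, replicate 1 as a circle, replicate 2 as a square and the group mean as a line. Each panel has its own axis from 0, since levels of different probe sets are not comparable. The mutant points of CLN1, CLN2, CLN3, CLB1, CLB2, CLB3 and SIC1 lie below the wild-type points and those of CLB4 above. Those of CLB5 and CLB6 overlap.

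All 3 G1 cyclin genes fell in the mutant. CLN3 (YAL040C), whose product is the upstream activator of the G1 to S transition, gave signals of 452.2 and 437.2 on the wild-type arrays against 333.9 and 309.6 on the mutant arrays. The mean fell by 27.6%, from 445 ± 10.6 to 322 ± 17.2 (SD, n = 2 each). The log2 fold change was -0.45 ± 0.0910 (SE) with an adjusted p of 0.00667 in limma, and 8.82% of tested genes fell further. CLN3 was the only member called in all 4 fits made with 3 of the arrays (adjusted p = 0.0190 to 0.0491). Each such fit leaves 1 group with a single array, which is assumed to vary like the other group.

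CLN2 (YPL256C), a late G1 cyclin gene, gave 82.6 and 80.9 in wild type against 61.5 and 54.9 in the mutant, a drop of 28.8% in the mean. The groups did not overlap, and the log2 fold change was -0.40 ± 0.107 (SE), with an adjusted p of 0.0222 in limma. Its paralog CLN1 (YMR199W) gave 91.0 and 88.9 in wild type against 69.7 and 69.0 in the mutant. Replicates of CLN1 nearly coincided in both groups, and its mean fell by 22.9%. The log2 fold change of CLN1 was -0.31 ± 0.101 (SE) with an adjusted p of 0.0447 in limma. With 1 array left out neither CLN1 nor CLN2 passed, with adjusted p from 0.0861 to 0.175 for CLN1 and from 0.0554 to 0.146 for CLN2. The log2 fold changes in those fits stayed between -0.33 and -0.30 for CLN1 and between -0.46 and -0.34 for CLN2. The median of the 3 G1 cyclin genes was -0.40, beside -0.03 over all tested genes.

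The S-phase cyclin genes showed no called change under the deposited scaling. CLB5 (YPR120C), whose product triggers replication origins through S phase, gave 110.8 and 126.2 in wild type against 108.7 and 117.1 in the mutant. The ranges overlapped, and the log2 fold change of -0.06 had a 95% interval from -0.30 to 0.18 (adjusted p = 0.701 in limma). A fall of CLB5 as large as that of CLN3 lies outside this interval, which holds for the deposited scaling only. With arrays scaled to the hybridization controls, described below, CLB5 gave -0.43 (adjusted p = 0.0164 in limma) and CLN3 -0.85. CLB6 (YGR109C), which acts in early S phase, gave wild-type signals of 16 and 14.8 and mutant signals of 16.7 and 15.9, under the signal of 25.1 required for testing. In a fit over all probe sets its log2 fold change was 0.04, with an interval from -0.18 to 0.26. At this brightness a change of the CLB6 transcript is hard to see.

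The mitotic cyclin genes did not share a direction. CLB3 (YDL155W), a cyclin gene of early mitosis on chromosome IV, gave 130.7 and 116.6 in wild type against 82.6 and 51.9 in the mutant. Both mutant arrays lay below both wild-type arrays, but the mutant arrays were far apart. The mean fell by 45.6%, from 124 ± 9.97 to 67.2 ± 21.7 (SD, n = 2 each), and the log2 fold change was -0.77 ± 0.164 (SE; adjusted p = 0.00841 in limma). This was the largest change of the 9 tested members and also the one with the largest standard error, and 2.14% of tested genes fell further. The log2 fold change was -0.50 without mutant replicate 2 and -1.04 without mutant replicate 1, both called. CLB3 did not pass once wild-type replicate 1 or wild-type replicate 2 was left out (adjusted p = 0.0921 and 0.0549).

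CLB4 (YLR210W), the paralog of CLB3, gave 43.9 and 45.1 in wild type against 60.4 and 59.1 in the mutant. It was the only member that rose, with tight replicates and a mean 34.3% higher. Its log2 fold change was 0.32 ± 0.104 (SE) with an adjusted p of 0.0440 in limma, and it passed in 0 of the 4 fits with 3 arrays (adjusted p = 0.0857 to 0.180), where its log2 fold change stayed between 0.31 and 0.34. CLB2 (YPR119W), the main mitotic cyclin gene, gave 77.0 and 91.3 in wild type against 71.9 and 58.1 in the mutant. The groups did not overlap, but the replicates of each group lay far apart. CLB2 did not pass, with a log2 fold change of -0.31, an interval from -0.59 to -0.02 and an adjusted p of 0.0948. CLB1 (YGR108W), the paralog of CLB2, gave 59.6 and 63.6 in wild type against 56.8 and 56.7 in the mutant. Its log2 fold change was -0.09, with an interval from -0.33 to 0.14 (adjusted p = 0.535). The median of the 4 mitotic cyclin genes was -0.20, and -0.09 when CLB3 and the rest of its stretch of the array were left out of the fit.

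SIC1 (YLR079W), the gene of the inhibitor of Clb-bound Cdc28, gave 119.8 and 111.6 in wild type against 90.8 and 93.3 in the mutant. The arrays of the groups were separate, and the mean was 20.4% lower in the mutant. SIC1 missed the threshold, with a log2 fold change of -0.28, an interval from -0.51 to -0.06 and an adjusted p of 0.0579 in limma.

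**Figure D2:**
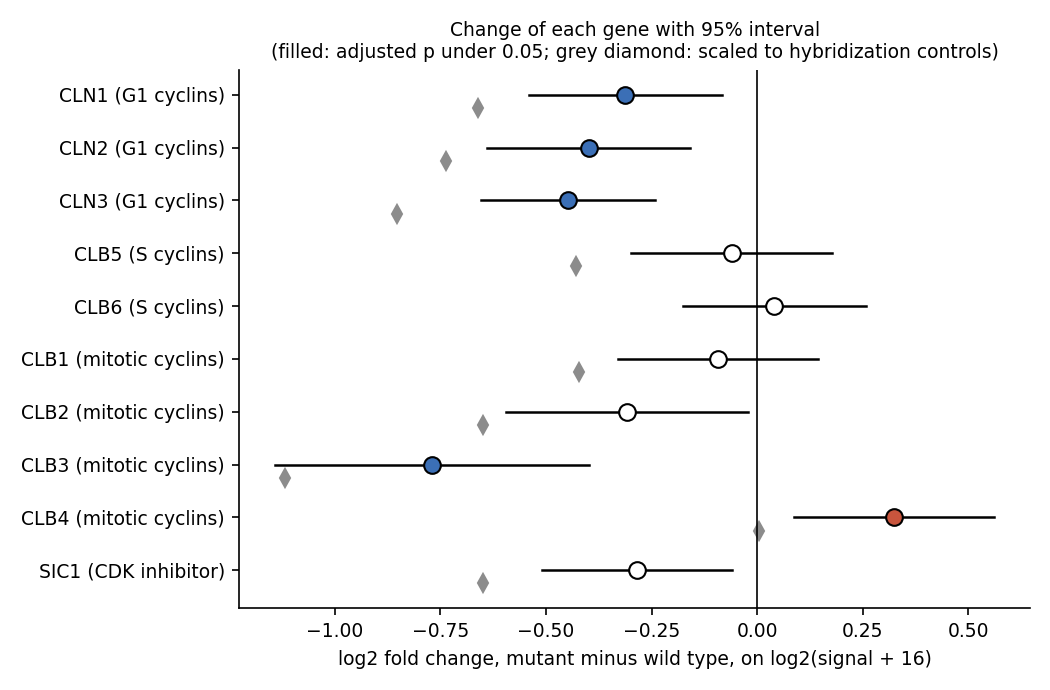
Log2 fold change (mutant minus wild type, log2(signal + 16) scale) of each gene as a circle with its 95% interval as a line. Filled circles passed an adjusted p of 0.05 (blue lower, red higher), and grey diamonds give the value after scaling to the hybridization controls. CLN1, CLN2, CLN3 and CLB3 are filled below 0 and CLB4 above 0, the diamond of CLB4 lies at 0, and CLB6, which was read from the fit over all probe sets, has no diamond.

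The sizes of these changes, and whether CLB1, CLB2, CLB4, CLB5 and SIC1 were called, depend on the deposited scaling, which gave all arrays the same trimmed mean. The hybridization controls, bacterial and phage transcripts that are by design added to each labelled sample, had geometric means of 138 and 141 on the wild-type arrays against 174 and 201 on the mutant arrays. With arrays scaled to these controls the median over all tested genes went from -0.03 to -0.39. That scaling called 2695 of 4475 tested genes, 7.61% of them higher, and among the members 8 lower and 0 higher. CLB4 then gave 0.00 (adjusted p = 0.984). The control scaling divides all signals of an array by the same factor, so apart from the offset it shifts all genes alike. The spacing of the members, measured from the median of all genes, was therefore nearly fixed in advance. It was 0.35 and 0.39 for CLB4 under the deposited scaling and the control scaling. For CLN3 it was -0.42 and -0.47, for CLB3 -0.74 and -0.73, and for CLB5 -0.03 and -0.04. The 3' to 5' signal ratio of the actin transcript was 1.56 and 1.51 on the wild-type arrays against 1.49 and 1.59 on the mutant arrays. One of the probe sets for 25S ribosomal RNA gave 251.9 and 779.6 in wild type against 4143 and 4474 in the mutant. The others are not given here, so this value alone does not describe ribosomal RNA as a whole. The part of these differences in the results was not tested.

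The B-type and late G1 cyclins come as pairs of paralogs, and the ratio within an array shows whether a pair changed unequally. Here it is the ratio of signal + 16, which still depends somewhat on the scaling and, for a dim gene such as CLB6, on the offset. The log2 ratio of CLB3 over CLB4 was 1.29 and 1.12 on the wild-type arrays against 0.37 and -0.15 on the mutant arrays. The balance of this pair thus differed by -1.09 between the group means, and the mutant arrays differed from each other by less than either differed from wild type. The log2 ratio of CLN1 over CLN2 was 0.12 and 0.11 in wild type against 0.15 and 0.26 in the mutant, a difference of 0.09. CLB1 over CLB2 gave -0.30 and -0.43 in wild type against -0.27 and -0.03 in the mutant, where the nearest arrays of the groups were closer than the replicates were. CLB5 over CLB6 gave 1.99 and 2.21 against 1.93 and 2.06, which overlap. No test was made of these ratios, and cross-hybridization between paralogs was not tested. In the R64 reference gene table CLB2 lies next to CLB5 on chromosome XVI, and CLB1 next to CLB6 on chromosome VII. Of the 3 tested genes among these neighbours 0 were called, and the log2 fold changes within each pair of neighbours were -0.31 and -0.06, and -0.09 and 0.04.

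**Figure D3:**
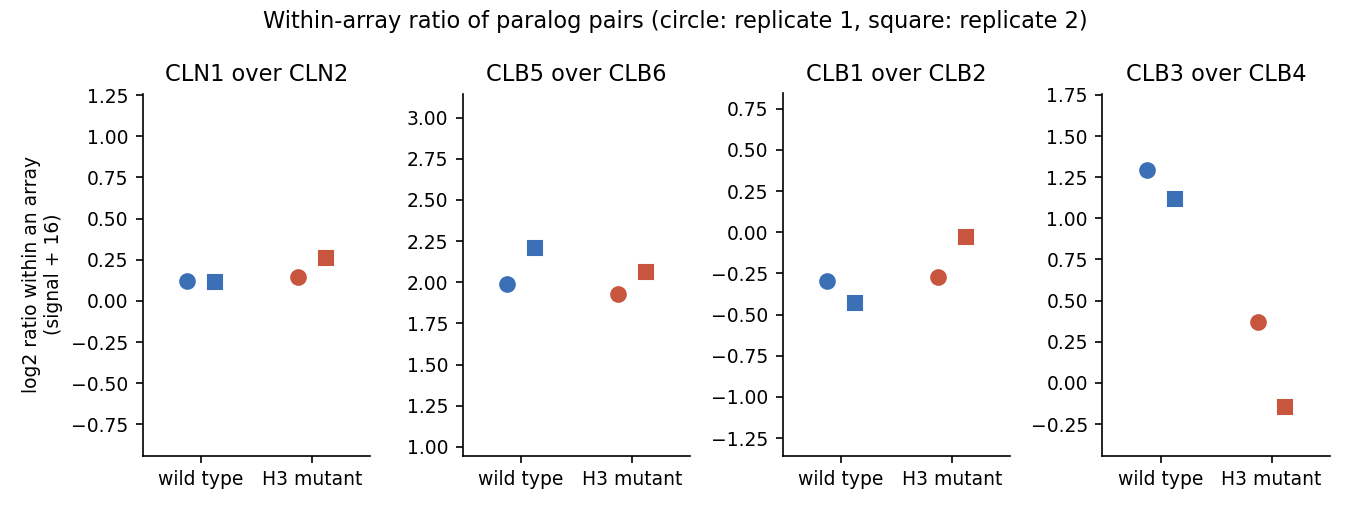
Log2 ratio of signal + 16 within each array for 4 pairs of paralogs, wild type in blue and H3 mutant in red, replicate 1 as a circle and replicate 2 as a square. All panels span the same range of log2 units. CLB3 over CLB4 drops from 1.29 and 1.12 to 0.37 and -0.15, and the other pairs move by 0.22 or less.

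CLB3 lies on chromosome IV, whose genes agreed less well between the mutant arrays than those of the other chromosomes taken as a whole. Of the 558 tested genes of chromosome IV, 53 (9.50%) differed by more than 0.5 on the log2 scale between the mutant replicates, against 55 of 3918 genes (1.40%) on the other chromosomes. In wild type the same limit was passed by 2 chromosome IV genes (0.358%) and by 72 others (1.84%). The correlation of the mutant arrays over chromosome IV genes was 0.967, against 0.993 over the others, where points are genes of the same 2 arrays and not independent replicates. Replicate 2 was the lower array in 34 of the 53 disagreeing genes. All 34 lay in a run of consecutive probe set numbers that holds 516 of the chromosome IV genes, of which 50 (9.69%) disagreed. Outside that run 3 of 42 chromosome IV genes disagreed (7.14%), with replicate 2 the lower array in 0. Within the run the arrays correlated at 0.966 in the mutant and 0.994 in wild type, and outside it at 0.985 and 0.986.

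CLB3 was among the disagreeing genes of that run, at -0.54 from mutant replicate 1 to replicate 2 and -0.15 in wild type. A difference between the mutant arrays at least as large as that of CLB3 was found in 50 chromosome IV genes (8.96%) and in 39 others (0.995%). The other 8 tested members lie on other chromosomes, and their mutant arrays differed by -0.25 (CLB2) to 0.09 (CLB5). The share of genes called was 30.3% on chromosome IV and 29.8% elsewhere. A fit was also made without the run of consecutive probe set numbers that holds 516 of the chromosome IV genes, CLB3 among them. It kept CLN1, CLN2, CLN3 and CLB4 called, with adjusted p of 0.0392, 0.0162, 0.00345 and 0.0389 in limma. That fit tested 3838 genes in place of 4476, so genes beyond those 516 were left out too. How well those further genes agreed between arrays was not tested.

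**Figure D4:**
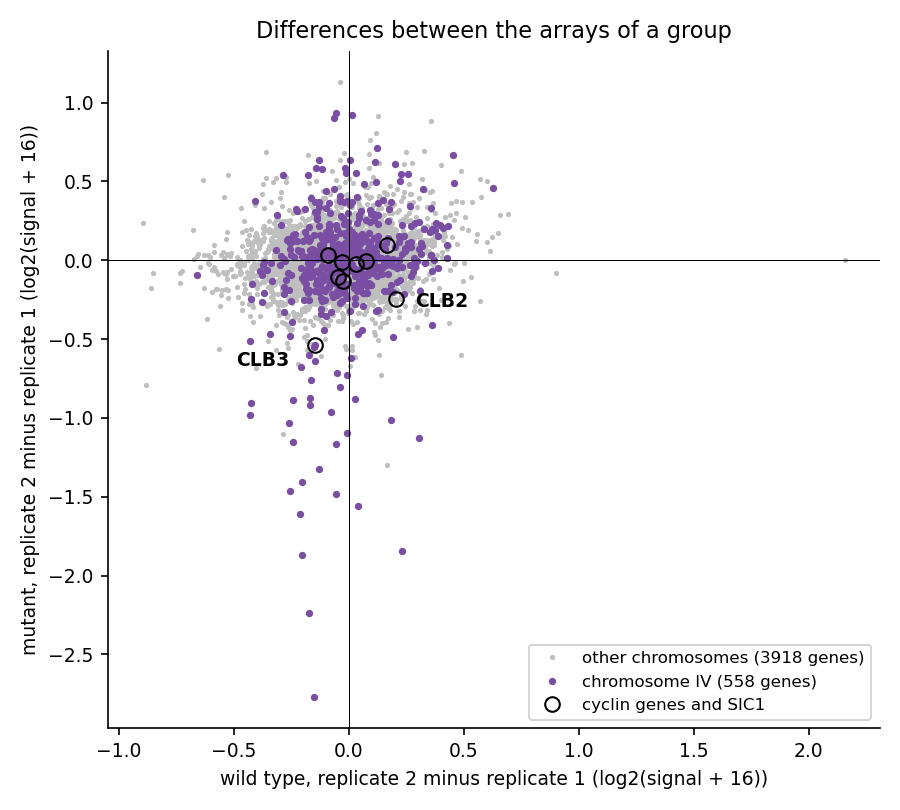
Difference between replicate 2 and replicate 1 on log2(signal + 16) for all 4476 tested genes, wild type on the horizontal axis and mutant on the vertical axis. Chromosome IV genes are purple, the others grey, and the 9 tested members are ringed. A downward tail of purple points marks chromosome IV genes that were lower on mutant replicate 2. All 34 that were lower by more than 0.5 lie in the run of probe sets that holds CLB3. CLB3 sits at -0.54 at the top of that tail, and the other ringed genes lie within 0.25 of 0 on the vertical axis.

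Other genes had patterns close to those of CLN1, CLN2, CLN3 and CLB4 over the 4 arrays. Such genes were counted for the called members only, so how common these patterns are was not tested. By Euclidean distance between mean-centred log2(signal + 16) values, 176 tested genes lay within 0.1 of CLN1, 80 of CLN2, 71 of CLN3 and 129 of CLB4. The nearest to CLN3 were SOK2, a transcription factor gene (distance 0.0271), YCR090C (0.0399) and ILV3, a branched-chain amino acid synthesis gene (0.0418). VNX1, SNF8 and PHO13 were nearest to CLN1 (0.0173 to 0.0225), SDD3, IOC4 and MCH4 to CLN2 (0.0181 to 0.0308), and YHL017W, QDR3 and MRM1 to CLB4 (0.0198 to 0.0237). No gene came within 0.1 of CLB3. The nearest to CLB3 were SNF11 (0.113) and SOK1 (0.138), both on chromosome IV, and TIF4631 (0.167) on chromosome VII. SNF11 and SOK1 lie in the same run of probe set numbers as CLB3. Their mutant arrays differed by -0.68 and -0.60 from replicate 1 to replicate 2, so they share the replicate disagreement of CLB3 as well. SNF11 gave 62.2 and 51.6 in wild type against 37.0 and 17.1 in the mutant. Distances over 4 arrays in 2 groups mostly record the size of the group difference, and for CLB3 also the gap between the mutant arrays.

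Among the kinase and the proteins that act on it or on Sic1, 3 of 13 tested genes fell, 1 rose and 9 did not pass, a share of calls near the 29.8% of all tested genes. Under the control scaling 8 of the 13 were called lower and 0 higher, beside 2695 of all 4475 tested genes called, mostly lower (7.61% higher). CDC28, the kinase gene, gave 164.8 and 147.8 in wild type against 135.1 and 137.6 in the mutant, and did not pass (log2 fold change -0.18, adjusted p = 0.205). CDC34, the ubiquitin-conjugating enzyme gene of SCF, which destroys Sic1, fell from 114.7 and 125.6 to 75.4 and 57.0 (log2 fold change -0.74, adjusted p = 0.00306). CDC53, the cullin gene of the same ligase, rose from 115.3 and 114.3 to 160.1 and 179.6 (log2 fold change 0.50, adjusted p = 0.00567, and 0.13 with an adjusted p of 0.489 under the control scaling). CDC34 and CDC53 are also on chromosome IV, where their mutant arrays differed by -0.32 and 0.15. HSL7, whose product helps to remove the Cdc28 inhibitor kinase Swe1, fell from 104.1 and 100.3 to 74.9 and 72.6 (log2 fold change -0.40, adjusted p = 0.0180). It passed in 1 of 4 fits without 1 array.

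FAR1, the inhibitor of Cln-bound Cdc28 in pheromone arrest, fell the furthest of these genes, from 216.4 and 186.9 to 14.2 and 12.8 (log2 fold change -2.88, adjusted p = 6.82e-07 in limma). FAR1 belongs to the haploid genes, and all 6 tested markers of a cells fell as well, with a median of -3.13. Among them MFA2, a pheromone gene, gave 1078 and 1258 in wild type against 33.4 and 33.9 in the mutant. Of 4 alpha cell markers, SAG1 was tested and rose (log2 fold change 1.11), and MF(ALPHA)1, MF(ALPHA)2 and STE3 stayed between 8.4 and 21.8 on every array. The strains thus differ in cell-type markers, and the part of that difference in the cyclin values was not tested.

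Genes of G1 to S transcription were mostly not called, where 29.8% of all tested genes were called. The list holds the gene of the inhibitor Whi5 as well as genes of SBF and MBF. Whether this short list differs from that share was not tested. SWI4, the DNA-binding subunit gene of SBF, was too dim to test, at 21.3 and 17.5 in wild type against 17.6 and 17.4 in the mutant. Of 12 tested genes of G1 to S transcription 1 fell, 1 rose and 10 did not pass, with a median of 0.02. MSA1, a co-activator gene of SBF and MBF, fell from 55.4 and 52.2 to 32.4 and 29.0 (log2 fold change -0.58, adjusted p = 0.00446 in limma). Its paralog MSA2 rose from 39.1 and 36.8 to 51.3 and 54.3 (log2 fold change 0.35, adjusted p = 0.0357), which passed in 0 of 4 fits with 3 arrays and not under the control scaling (0.04). Of 20 tested targets of SBF and MBF other than the cyclins, 0 were called in limma, with a median of 0.05. At an unadjusted p under 0.05 the count was also 0, where 42.6% of all tested genes passed. POL12, a DNA polymerase alpha subunit gene, gave -0.23 and POL2, the DNA polymerase epsilon gene, 0.20, the largest moderated statistics on that list. CLN1 and CLN2 are targets of the same factors. Under the control scaling 10 of these 20 targets were called lower and 0 higher. The same scaling called 2695 of all 4475 tested genes, mostly lower (7.61% higher).

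Of the genes expressed with the mitotic cyclins, few were called under the deposited scaling, beside 29.8% of all tested genes. The lists are short, and whether they differ from that share was not tested. All 4 regulators of that programme were uncalled. MCM1 alone had an unadjusted p under 0.05 in limma, as 42.6% of all tested genes did. NDD1, the activator gene, gave 0.07, MCM1 -0.29 and the forkhead factor genes FKH1 and FKH2 0.21 and -0.17. SWI5, which is transcribed with CLB2, gave 65.2 and 46.4 in wild type against 47.0 and 43.1 in the mutant, and did not pass (log2 fold change -0.22, adjusted p = 0.258). Of 17 tested genes of the CLB2 cluster other than CLB1 and CLB2, 1 rose, 1 fell and 15 did not pass, with a median of 0.00. The called genes were PHO3, an acid phosphatase gene, which rose by 0.65, and SUR7, a plasma membrane protein gene, at -0.64. SUR7 passed in 1 of 4 fits without 1 array, and PHO3 gave 0.24 (adjusted p = 0.159) under the control scaling. That scaling called 7 of the 17 genes and 2 of the 4 regulators lower, and 0 of either higher. Of all 4475 tested genes it called 2695, mostly lower (7.61% higher).

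Of 15 tested genes of mitotic exit and of the anaphase-promoting complex, the ligase that destroys mitotic cyclins, 4 rose, 0 fell and 11 did not pass (median 0.00), where 14.3% of all tested genes rose and 15.5% fell. BUB2, a checkpoint gene that holds back mitotic exit, rose from 43.1 and 45.5 to 76.4 and 72.0 (log2 fold change 0.58, adjusted p = 0.00386 in limma). APC1, a scaffold subunit gene of the complex, rose from 123.7 and 98.0 to 161.8 and 170.8 (log2 fold change 0.53, adjusted p = 0.00990). The mitotic exit kinase gene CDC15 rose by 0.47 and the separase gene ESP1 by 0.34, with adjusted p of 0.0141 and 0.0366. Under the control scaling all 4 calls were lost, with log2 fold changes between 0.04 and 0.25. Of the 15 genes 7 were then called lower and 0 higher, beside 2695 of all 4475 tested genes called, mostly lower (7.61% higher). Under the deposited scaling with 1 array left out, 1 to 3 of the list rose, the fewest without wild-type replicate 2.

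Of 15 tested genes switched on at the end of mitosis, as SIC1 is, 6 fell, 1 rose and 8 did not pass, with a median of -0.16, where 15.5% of all tested genes fell. Under the control scaling 11 were called lower and 0 higher, beside 2695 of all 4475 tested genes called, mostly lower (7.61% higher). RME1, a repressor of meiosis that is also a haploid gene, fell from 195.9 and 187.8 to 29.2 and 35.7 (log2 fold change -2.10, adjusted p = 3.74e-06 in limma). AMN1, which acts in daughter cells to end mitotic exit signalling, fell from 329.1 and 361.8 to 144.4 and 110.5 (log2 fold change -1.34, adjusted p = 9.80e-05). NIS1, a bud neck protein gene, fell from 114.4 and 110.0 to 50.4 and 56.0 (log2 fold change -0.89), and SCW11, a cell wall glucanase gene, from 179.9 and 165.1 to 112.1 and 100.6 (log2 fold change -0.62). RME1, AMN1, NIS1 and SCW11 were called in all 4 fits without 1 array, while DSE1 passed in 1 and PCL9 in 0. CTS1, EGT2 and ASH1, which share this timing, gave -0.26, -0.13 and 0.12 and did not pass. PST1, a cell wall gene, rose by 0.38, and gave -0.02 under the control scaling.

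Among 8 tested early G1 genes other than CLN3, FAR1 and the replicative helicase gene MCM3 fell, MCM2 rose and 5 did not pass, a share of calls near the 29.8% of all tested genes. MCM3 was at -0.54 (adjusted p = 0.0231) and MCM2 at 0.38 (adjusted p = 0.0499), each called in 1 of 4 fits without 1 array, and MCM2 gave 0.03 under the control scaling. Of 9 tested genes for the kinase Pho85 and its cyclins, a second cyclin-dependent kinase system, 2 fell, 1 rose and 6 did not pass, which is also near that share. PCL5, a cyclin gene of amino acid control, rose from 162.3 and 179.0 to 248.9 and 263.0 (log2 fold change 0.54, adjusted p = 0.00317 in limma, and 0.15 with an adjusted p of 0.391 under the control scaling). PHO85 and PCL9, a cyclin gene of late mitosis and early G1, were at -0.31 and -0.39, with adjusted p of 0.0391 and 0.0287, and passed in 0 of 4 fits with 3 arrays. PCL1 and PCL2, the G1 cyclins of Pho85, gave 0.11 and -0.16 and did not pass.

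**Figure D5:**
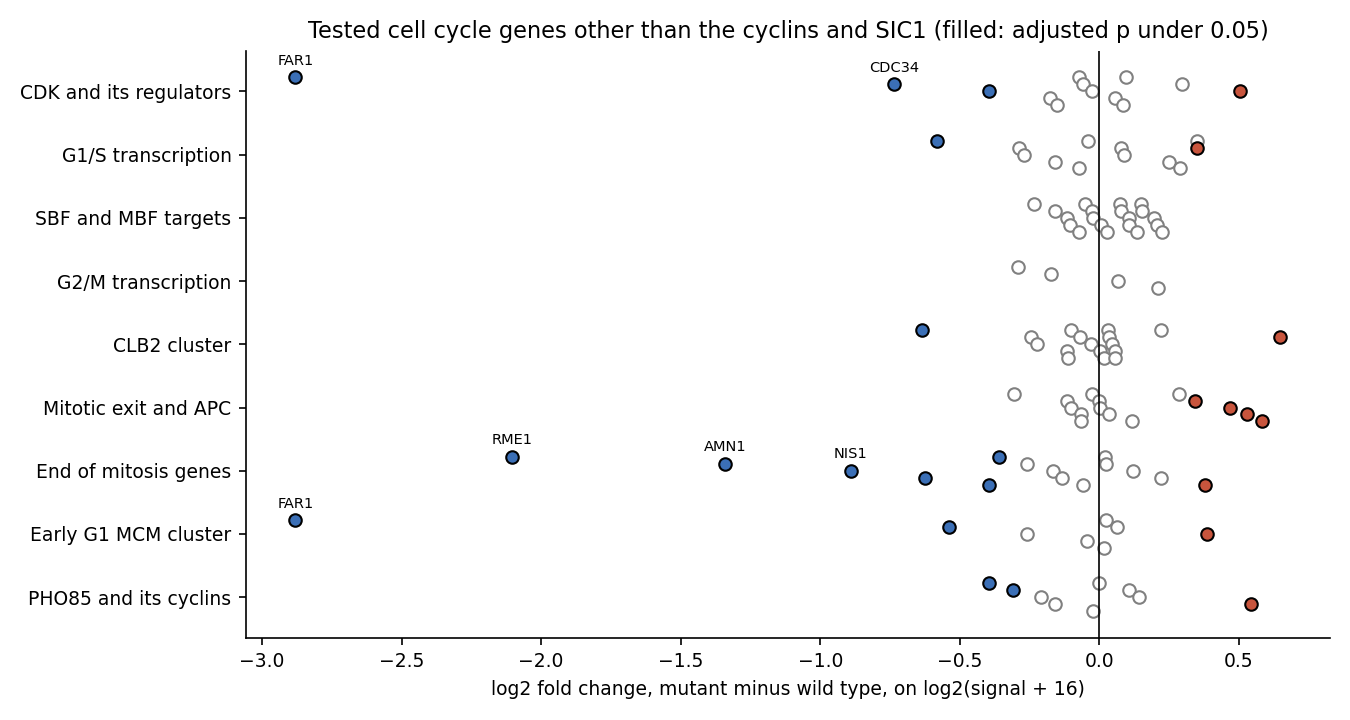
Log2 fold change (mutant minus wild type, log2(signal + 16) scale) of each tested gene in 9 cell cycle lists, without the cyclins of Cdc28 and SIC1. Filled points passed an adjusted p of 0.05 (blue lower, red higher), and vertical offsets within a list only separate the points. The furthest points to the left are FAR1 at -2.88, RME1 at -2.10 and AMN1 at -1.34, and the 20 SBF and MBF targets are all open.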

How the data were processed

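MAS5 made the signals, per the submitters' processing notes, and no version, scaling target or genome build was given. The authors deposited intensity values, linear, for 9335 probe sets, with a 2% trimmed mean of 125.1 on each array, and these were used without further scaling. The platform's gene table, updated by gene identifier to the R64 gene table, gave 6504 probe sets 1 gene, 328 several and 2503 none. No coordinates were used.

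The test was limma 3.58.1 (R 4.3.3) on log2(signal + 16), mutant minus wild type, with lmFit and a trended eBayes. A probe set was tested if it had 1 gene and its average log2 signal reached the 25th percentile of those sets (a signal of 25.1), and the brightest set stood for its gene. Residual degrees of freedom were 2 and prior ones 7.03, and 1908 genes had an unadjusted p under 0.05. Intervals are 95% and unadjusted. The test was also run on data simulated from its own fitted spread, with normal and independent errors. Such data hold no array differences like those of chromosome IV, so that run cannot show how the test handles them. Figures used matplotlib 3.10.9 in Python 3.11.15.

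The members, lists and tests were chosen with earlier results of these data known. Named genes were the members, up to 4 called genes per list by moderated statistic (2 uncalled where none was called), and FAR1, SWI4, SWI5, NDD1 and CDC28. CTS1, EGT2, ASH1, DSE1, PST1, PCL1, PCL2, and FKH2 were named after their values were seen. The alternatives were other offsets, scalings, filters and spread models, the mean of a gene's probe sets, and a replicate block. Others left out each array, or the run of probe set numbers 5600 to 6699. A test of all probe sets together and the list counts under other settings were added after the data were seen.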

Additional observations from a re-analysis of the deposited data

How the results depend on the processing

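Of the called members, CLN3 stayed lower and called in 17 of 17 alternatives (log2 fold change -0.85 to -0.39). CLN1, CLN2 and CLB3 kept their direction but lost the call in 6, 5 and 3 alternatives, and CLB4 lost it in 6, in 1 of them with no direction left (0.00 under scaling to the hybridization controls). Under median centring CLN1 gave -0.28 (adjusted p = 0.0517). Scaling to the hybridization controls called 2695 genes in place of 1335, 7.61% of them higher in place of 48.0%. It gave 0 members higher and 8 lower. The medians under it were -0.74 for the G1 and -0.54 for the mitotic cyclin genes. CLB5, the only S cyclin gene tested, gave -0.43. The spread was then pooled over all genes (an infinite prior), which makes its p-values small. Testing all probe sets together left 0 members higher and 1 lower (CLN3). A filter at the median left out CLB4 and CLB1, with 0 members higher and a mitotic median of -0.54. The G1 median was -0.47 with an offset of 1, -0.26 with 64 and -0.37 with median centring, and the mitotic median was -0.0926 without the run of probe sets that holds CLB3, which this leaves out by construction. With 1 array left out, 771 to 914 genes were called, 0 members were called higher and 1 to 2 lower, with CLB4 still at 0.31 to 0.34, and the G1 median was -0.46 to -0.34. CLB5 lay between -0.142 and 0.0229, the latter without wild-type replicate 2. With the replicate number as a block, 6 members were called lower, 1 higher and 1766 genes in all. CLB2 and SIC1 were then called (adjusted p = 0.0307 and 0.0457). The labels give the number no meaning, the deviations of same-numbered arrays correlated at 0.130, and the spread of that fit too was pooled over all genes (an infinite prior), which makes its p-values small. Except where stated, the cause was not tested. Dim signal limits CLB6 and SWI4, which were not tested.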
